A study of Homo sapiens with 3 samples.

Results

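The 10 genes described here brake the cell cycle. They are the inhibitors of cyclin-dependent kinases (CDKs) other than CDKN1A, and the retinoblastoma (RB) family, namely CDKN1B, CDKN1C, CDKN2A, CDKN2B, CDKN2C, CDKN2D, CDKN3, RB1, RBL1 and RBL2. They were chosen by name and matched by symbol to the Ensembl identifiers of the deposited table, and all 10 were found among its 22827 genes. Each had at least 10 reads in 1 or more libraries, as did 12726 genes in all.

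CDKs paired with cyclins drive cells from G1 into S phase by phosphorylating the RB family, also called pocket proteins, which otherwise bind E2F transcription factors and hold their target genes silent. The INK4 inhibitors (CDKN2A to CDKN2D) bind CDK4 and CDK6, whereas the CIP/KIP inhibitors (CDKN1B, encoding p27, and CDKN1C, encoding p57) bind cyclin-CDK complexes more broadly. As background, cells without working RB protein often carry high levels of p16, a product of CDKN2A.

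The study sequenced RNA of 3 libraries whose cells carry the label Hep3B, the name of a human liver cancer line. The genotypes were control, USP39-KO (a knockout of USP39, a protein of the spliceosome) and SIRT7-KO (a knockout of SIRT7, a nuclear deacylase), with 1 library each. The labels do not say how the knockouts were made, whether they were clones, or what the control cells had received. Each group is 1 library, so no difference has a replicate check, no test could be made and no p-value is given. Every comparison therefore describes these libraries, not the conditions.

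Counts summed to between 16151522 and 19427940 per library. USP39 had 1829 control reads, 1066 in its knockout and 1511 in SIRT7-KO, and SIRT7 had 984 control reads, 808 in USP39-KO and 608 in its knockout. The lowest count of each target was in its own knockout library, and neither target was absent there. The liver identity in the label was checked on 15 markers of hepatocytes and Hep3B. Of these, 7, among them ALB and AFP, had 0 reads in all 3 libraries, where counting error alone allows up to 0.154, 0.182 and 0.184 CPM (counts scaled to a common library size) in the order control, USP39-KO, SIRT7-KO, and 11 had under 10 reads in each library. The table also lists 0 reads for some widely used genes such as RING1, so a 0 does not in itself show that a gene was silent. The other 4 liver markers, HNF4A and FGB among them, had 10 or more reads in 1 or more libraries (values in the last section). The liver markers thus gave little support to the label, and the identity of the cells was not checked further.

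CDKN2A was the most abundant of the 10 genes by length in the control and in SIRT7-KO, and CDKN1B was the most abundant in USP39-KO. Levels of different genes were compared only as FPKM, the deposited reads scaled by listed gene length and library total. CDKN2A had 39.7 FPKM in the control library, 39.2 in USP39-KO and 44.6 in SIRT7-KO. These levels lay above those of 92.5%, 92.1% and 93.5% of the genes with reads, whose median was between 4.49 and 4.63 FPKM. CDKN2D, the INK4 inhibitor p19, was the lowest of the 10 in every library, at 2.71, 1.96 and 2.88 FPKM in the order control, USP39-KO, SIRT7-KO.

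In the control the order from the top was CDKN2A, CDKN1B, CDKN1C, RB1, CDKN2C, CDKN3, CDKN2B, RBL2, RBL1 and CDKN2D. Neighbours in this order differed beyond counting error, except that CDKN2B (10.5 FPKM) could not be told from RBL2 (10.1 FPKM), nor RBL2 from RBL1 (9.61 FPKM). In USP39-KO CDKN1B (42.7 FPKM) stood above CDKN2A (ratio of the levels 1.09, exact 95% interval 1.03 to 1.15), and CDKN1C stood in the fifth place. In SIRT7-KO CDKN1C (36.4 FPKM) came directly after CDKN2A and was not distinguishable from CDKN1B (35.4 FPKM; ratio 1.03, 0.96 to 1.11).

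The length behind these levels matters most for CDKN2A. Its listed length of 4400 bases is close to the union of all its annotated exons (4329 bases in GENCODE 29), whereas its longest annotated transcript has 1283 bases. Counted per longest transcript, CDKN2A stood at 136.2 FPKM in the control library, 134.5 in USP39-KO and 153.1 in SIRT7-KO. It then led the 10 genes in all 3 libraries, by a factor of 3.30, 2.98 and 3.15 over the next gene. Under this length 4 of the 10 genes took another rank in the control. Which transcripts were present was not measured.

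**Figure D1:**
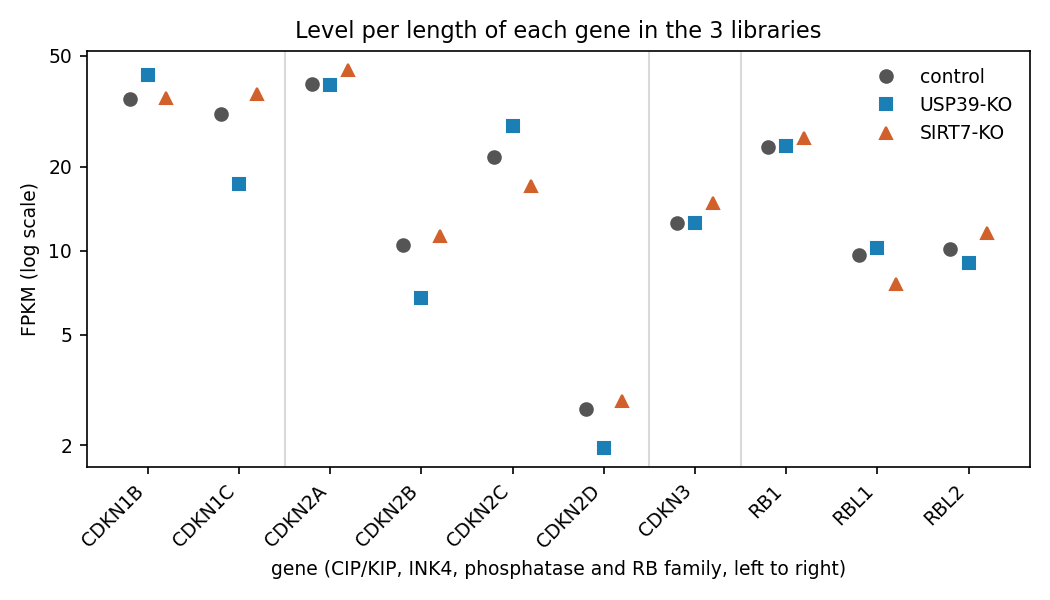
Deposited FPKM on a log axis for each of the 10 genes, with 1 point per library (circle, control; square, USP39-KO; triangle, SIRT7-KO) and no error bars because each group has 1 library. CDKN2A lies between 39.2 and 44.6 FPKM in all 3, while CDKN1C is at 17.3 in the USP39-KO library.

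The makeup of each family differed between libraries, while the summed level of the INK4 genes and that of the RB family differed little. The 4 INK4 genes summed to 74.6 FPKM in the control library, 76.0 in USP39-KO and 75.9 in SIRT7-KO. CDKN2A made up 53.2%, 51.6% and 58.8% of that sum. CDKN2C made up 29.1% in the control library, 36.9% in USP39-KO and 22.6% in SIRT7-KO, so it stood on opposite sides of the control in the knockouts. CDKN2B made up 14.04%, 8.93% and 14.85%, with the low value in USP39-KO.

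The 2 CIP/KIP genes summed to 66.0, 60.0 and 71.8 FPKM in the order control, USP39-KO, SIRT7-KO. CDKN1C held 46.9% of this sum in the control library, 28.9% in USP39-KO and 50.8% in SIRT7-KO. The RB family summed to 43.3, 43.1 and 44.6 FPKM, with RB1 at 54.5%, 55.3% and 57.05%. The share of RBL1 was 22.2%, 23.7% and 17.0%, lowest in SIRT7-KO. These shares rest on the listed gene lengths.

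**Figure D2:**
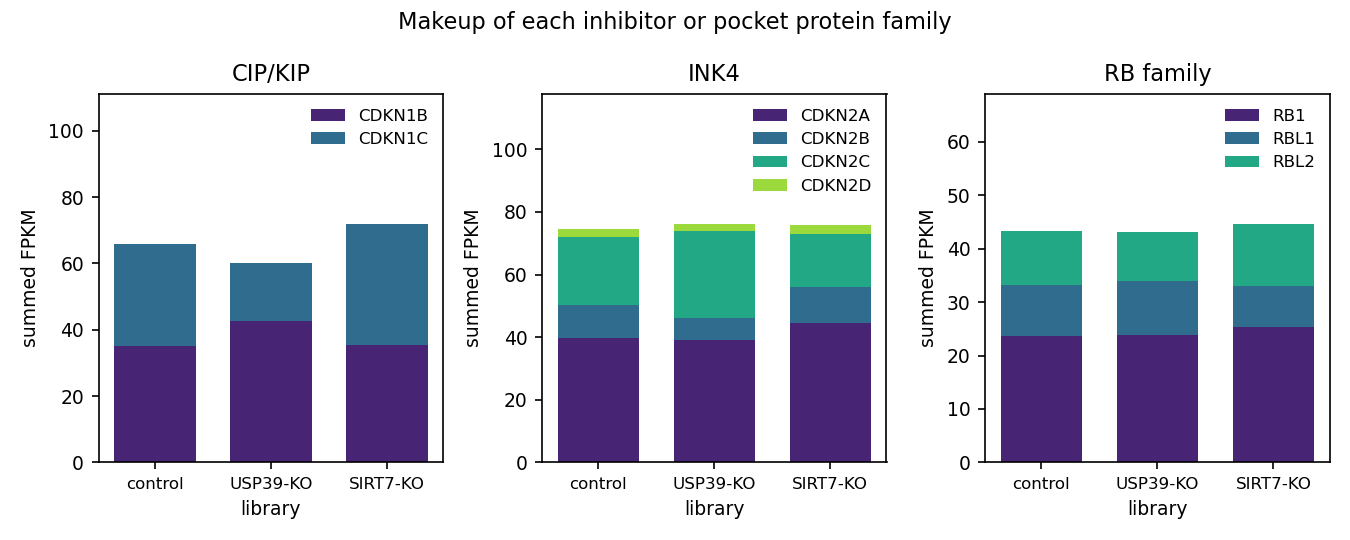
Stacked bars of deposited FPKM, from 0, for the CIP/KIP (without CDKN1A), INK4 and RB families in each library, 1 library per bar. Bar heights stay between 74.6 and 76.0 FPKM for INK4, while the CDKN1C segment is 30.9, 17.3 and 36.4 FPKM in the order control, USP39-KO, SIRT7-KO.

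Differences between libraries were then read gene by gene, as the log2 ratio of counts scaled to library size, with an exact 95% interval that covers counting error only. A gene passed the size rule when it differed at least 2-fold and its interval excluded 0. Against the control, none of the 10 genes passed in USP39-KO, where 4.86% of 12726 genes did, and none passed in SIRT7-KO, where 7.06% did. At this share a count of 0 among 10 is near the background. Between the knockouts 1 of 10, CDKN1C, was higher in SIRT7-KO than in USP39-KO, where 8.54% of genes passed and 5.03% were higher. The median log2 ratio of the 10 genes was 0.01 in USP39-KO and 0.09 in SIRT7-KO, against 0.00 and -0.01 over all genes.

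Smaller differences were common. The interval excluded 0 for 5 of the 10 genes in USP39-KO (2 above and 3 below the control), where it did so for 44.4% of all genes, 22.0% above and 22.5% below. In SIRT7-KO it excluded 0 for 7 of 10 (5 above and 2 below), against 56.1% of all genes, 27.3% above and 28.8% below. Both counts are near the background. With a rule of 1.5-fold in place of 2-fold, CDKN1C and CDKN2B were lower in USP39-KO, where 6.40% of genes were lower, and none of the 10 passed in SIRT7-KO, where 7.21% of genes were higher and 7.83% lower.

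**Figure D3:**
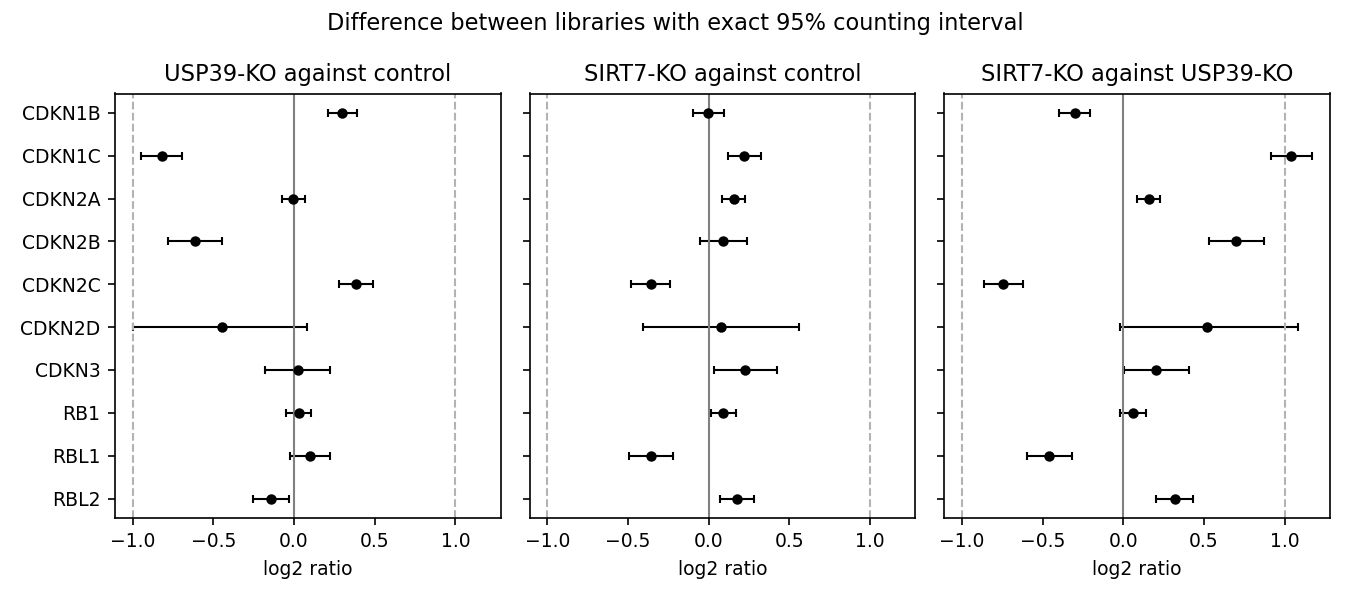
Log2 ratios of the 10 genes in the 3 comparisons, 1 library against 1, with exact 95% counting intervals as bars and dashed lines at 2-fold. CDKN1C between the knockouts is the 1 point past a dashed line, at 1.04, and RB1 and CDKN2A lie within 0.16 of 0 in each panel.

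Of the 10 genes, CDKN1C had the largest log2 ratio between any pair of libraries. CDKN1C (ENSG00000129757; chromosome 11, 2883213 to 2885773, minus strand, in GENCODE 29 on GRCh38) is an imprinted gene expressed from the maternal copy and encodes p57. It had 1554 reads in the control library, 745 in USP39-KO and 1522 in SIRT7-KO, or 80.0, 45.3 and 93.3 CPM. The USP39-KO library was the low one. Its level there was 0.566 times the control (log2 ratio -0.82, interval -0.95 to -0.69), short of the 2-fold rule. In bulk RNA, fewer cells with a transcript and less of it per cell cannot be told apart. In SIRT7-KO it was 1.17 times the control (log2 ratio 0.22, 0.12 to 0.32). Set directly against each other, SIRT7-KO was 2.06-fold above USP39-KO (log2 ratio 1.04, 0.92 to 1.17), and the interval reached below 2-fold.

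CDKN1C lies in an imprinted domain of which 4 other listed genes had enough reads, and these varied in direction. KCNQ1, a potassium channel gene of that domain, had 925, 826 and 344 reads in the order control, USP39-KO, SIRT7-KO. KCNQ1 was lower by the rule in SIRT7-KO (log2 ratio -1.17, -1.36 to -0.995), where CDKN1C was not. PHLDA2, a maternally expressed growth regulator, had log2 ratios of 0.10 in USP39-KO and 0.88 in SIRT7-KO. SLC22A18, a transporter gene, had -0.22 and 0.42, on the same sides of the control as CDKN1C, and NAP1L4, a histone chaperone gene, -0.14 and -0.18. The nearest listed gene, SLC22A18AS, lies 2007 bases away and had 24, 6 and 33 reads, low in the same library as CDKN1C.

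CDKN1B (ENSG00000111276; chromosome 12, 12715058 to 12722371, plus strand) encodes p27, an inhibitor of CDK2 complexes that is controlled largely by protein turnover. It had 1913 reads in the control library, 1995 in USP39-KO and 1605 in SIRT7-KO, or 98.46, 121.2 and 98.35 CPM. USP39-KO was the high library, at 1.23 times the control (log2 ratio 0.30, 0.21 to 0.39). The control and SIRT7-KO differed by less than counting error (log2 ratio 0.00, -0.10 to 0.10). The related inhibitor CDKN1A, which encodes p21, had 1289, 1156 and 2372 reads and was 2.19-fold higher in SIRT7-KO (log2 ratio 1.13, 1.03 to 1.23), so the 3 CIP/KIP genes each had a pattern of their own.

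Of 14 genes that act on p27, none passed the size rule in either knockout. Their median log2 ratio was 0.11 in USP39-KO and 0.11 in SIRT7-KO. CUL1, the scaffold of the ubiquitin ligase that marks p27 for destruction, had 0.35 (0.27 to 0.43) in USP39-KO. CUL4A, the most abundant gene of the list, had 0.23 in USP39-KO and -0.10 in SIRT7-KO. The forkhead factors, which activate CDKN1B transcription, lay above the control in SIRT7-KO, with FOXO1 at 0.31, FOXO3 at 0.27 and FOXO4 at 0.33, while in USP39-KO FOXO1 had -0.30 (-0.53 to -0.07), FOXO3 0.12 (-0.01 to 0.24) and FOXO4 0.11 (-0.09 to 0.32). CDKN1B itself was at the control level in SIRT7-KO and above it in USP39-KO.

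Of the INK4 inhibitors, CDKN2A was the steadiest across libraries. CDKN2A (ENSG00000147889; chromosome 9, 21967753 to 21995301, minus strand) encodes p16 and, from another first exon and reading frame, ARF, which restrains MDM2. It had 3394 reads in the control library, 2869 in USP39-KO and 3173 in SIRT7-KO, or 174.7, 174.3 and 194.4 CPM. The control and USP39-KO differed by less than counting error (log2 ratio 0.00, -0.08 to 0.07). SIRT7-KO was 1.11 times the control (log2 ratio 0.15, 0.08 to 0.22). Counts over the whole gene do not separate p16 from ARF transcripts.

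CDKN2B (ENSG00000147883; chromosome 9, 22002903 to 22009363, minus strand) encodes p15, an INK4 inhibitor known for its induction by TGF-beta, and is the next gene to CDKN2A at a distance of 7602 bases. It had 826 reads in the control library, 458 in USP39-KO and 739 in SIRT7-KO, or 42.5, 27.8 and 45.3 CPM. USP39-KO was the low library, at 0.655 times the control (log2 ratio -0.61, -0.78 to -0.44). In SIRT7-KO the interval included 0 (log2 ratio 0.09, -0.05 to 0.24). The adjacent genes thus differed in USP39-KO, with CDKN2A at its control level and CDKN2B below.

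CDKN2A and CDKN2B are close copies over part of their coding sequence, so reads that fall wholly inside an identical stretch could come from either gene. Of all distinct stretches of 50 bases in the GENCODE 29 transcripts, 0.681% of those of CDKN2A and 0.765% of those of CDKN2B were shared by both genes. No other pair of the 10 genes shared a stretch of 25 bases or more. The sources used here give neither the read length nor the treatment of reads that fit more than 1 place. Both genes are also overlapped on the opposite strand by CDKN2B-AS1, which was not found in the deposited table and so has no counts here. Whether the counts use strand is not given.

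CDKN2C (ENSG00000123080; chromosome 1, 50960745 to 50974633, plus strand) encodes p18. It had 1402 reads in the control library, 1549 in USP39-KO and 918 in SIRT7-KO, or 72.2, 94.1 and 56.25 CPM. The knockout libraries lay on opposite sides of the control. USP39-KO was at 1.30 times the control (log2 ratio 0.38, 0.28 to 0.49) and SIRT7-KO at 0.780 times (log2 ratio -0.36, -0.48 to -0.24). Directly compared, SIRT7-KO was at 0.598 times USP39-KO (log2 ratio -0.74, -0.86 to -0.62).

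CDKN2D (ENSG00000129355; chromosome 19, 10566462 to 10569059, minus strand) had 79 reads in the control library, 49 in USP39-KO and 70 in SIRT7-KO. At this depth no difference was detectable, since the intervals ran from -0.99 to 0.08 in USP39-KO and from -0.41 to 0.56 in SIRT7-KO. FAF1, the nearest listed gene to CDKN2C, had log2 ratios of 0.01 and -0.19, and KRI1, the nearest to CDKN2D, -0.10 and -0.14.

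The CDKN2A and CDKN2B locus was also read beside its neighbours on the chromosome and the Polycomb proteins known to silence it. Of the neighbours, MTAP, a methionine salvage enzyme often lost together with CDKN2A in tumours, had 865, 897 and 769 reads in the order control, USP39-KO, SIRT7-KO. Its log2 ratios were 0.29 (0.16 to 0.43) and 0.08 (-0.06 to 0.22), and those of KLHL9 0.34 and 0.23. MTAP and KLHL9 therefore lay above the control in USP39-KO, where CDKN2B lay below it. DMRTA1 and IFNE had at most 39 reads in any library. DMRTA1, the nearest listed gene on the other side of CDKN2B, had log2 ratios of -0.45 in USP39-KO and -0.93 in SIRT7-KO. Its interval included 0 in USP39-KO and lay below 0 in SIRT7-KO.

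Of 18 Polycomb genes and other repressors of the locus, 14 had enough reads and none passed the size rule in either knockout. KDM2B, CBX2 and RING1 were listed at 0 reads everywhere. Medians were -0.05 in USP39-KO and -0.10 in SIRT7-KO. EZH1 and PHC1 had -0.35 each in USP39-KO, and CBX8 had 0.40 (0.19 to 0.61), CBX6 -0.32 and SUZ12 -0.23 in SIRT7-KO. ID1, a repressor of CDKN2A transcription, was the most abundant, with 0.06 and 0.20.

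CDKN3 (ENSG00000100526; chromosome 14, 54396849 to 54420218, plus strand) encodes a phosphatase that removes the activating phosphate from CDK2 and is itself a gene of the G2/M period. It had 445 reads in the control library, 383 in USP39-KO and 438 in SIRT7-KO, or 22.9, 23.3 and 26.8 CPM. In USP39-KO the interval included 0 (log2 ratio 0.02, -0.18 to 0.22), and SIRT7-KO was at 1.17 times the control (log2 ratio 0.23, 0.04 to 0.42). Among 8 genes of CDK1 and the mitotic cyclins, none passed the rule. Their median log2 ratio was 0.06 in USP39-KO and -0.03 in SIRT7-KO, where 3 lay above 0 and 5 below. CDK1 had 0.39 (0.33 to 0.45), CDC25C 0.30 and WEE1 0.17 in SIRT7-KO, whereas the abundant CCNB1 had -0.11. In USP39-KO CCNB2 had 0.21, WEE1 0.20, PKMYT1 0.09 and CCNB1 0.04.

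In the RB family, RB1 was the most abundant and varied least. RB1 (ENSG00000139687; chromosome 13, 48303726 to 48599436, plus strand) had 2830 reads in the control library, 2445 in USP39-KO and 2533 in SIRT7-KO, or 145.7, 148.6 and 155.2 CPM. The log2 ratio was 0.03 (-0.05 to 0.11) in USP39-KO and 0.09 (0.01 to 0.17) in SIRT7-KO. Hep3B is known as a line without RB protein. Gene counts do not show whether a transcript is intact, and protein was not measured. LPAR6, which lies inside an RB1 intron on the other strand, had 1, 2 and 1 reads, and RCBTB2, which also overlaps RB1 on the other strand, had 64, 61 and 41. Neighbouring genes ITM2B and MED4 had -0.02 and -0.07 in USP39-KO and 0.09 and 0.33 in SIRT7-KO.

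RBL1 (ENSG00000080839; chromosome 20, 36996349 to 37095995, minus strand) encodes p107, the pocket protein that is made mainly in cycling cells. It had 1112 reads in the control library, 1011 in USP39-KO and 730 in SIRT7-KO, or 57.2, 61.4 and 44.7 CPM. SIRT7-KO was the low library, at 0.782 times the control (log2 ratio -0.36, -0.49 to -0.22). In USP39-KO the interval included 0 (log2 ratio 0.10, -0.02 to 0.23).

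RBL2 (ENSG00000103479; chromosome 16, 53433977 to 53491649, plus strand) encodes p130, the pocket protein of resting cells. It had 1479 reads in the control library, 1135 in USP39-KO and 1404 in SIRT7-KO, or 76.1, 69.0 and 86.0 CPM. The log2 ratio was -0.14 (-0.26 to -0.03) in USP39-KO and 0.18 (0.07 to 0.28) in SIRT7-KO. RBL1 and RBL2 therefore lay on opposite sides of the control in SIRT7-KO. AKTIP, which overlaps RBL2 on the other strand, had 150, 88 and 127 reads. The nearest gene before RBL2, CHD9, a chromatin remodeller, had log2 ratios of -0.37 in USP39-KO and 0.33 in SIRT7-KO, on the same sides as RBL2. RPGRIP1L, a cilium gene after RBL2, had -0.29 and 0.53. Beside RBL1, MROH8 at 5231 bases had 18, 5 and 2 reads, below the control in both knockouts, and SAMHD1, a nucleotide hydrolase gene at 44448 bases on the other side, had log2 ratios of 0.11 and -0.40. Whether neighbours share a cause was not tested.

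RBL1 is itself known as a gene that E2F factors bind, and its promoter is shown because its level is read below beside E2F target genes. The 250 bases before its start come from RefSeq (GRCh38.p14, minus strand), with the matches to an E2F motif in capitals.
RBL1 chr20:37095998-37096247: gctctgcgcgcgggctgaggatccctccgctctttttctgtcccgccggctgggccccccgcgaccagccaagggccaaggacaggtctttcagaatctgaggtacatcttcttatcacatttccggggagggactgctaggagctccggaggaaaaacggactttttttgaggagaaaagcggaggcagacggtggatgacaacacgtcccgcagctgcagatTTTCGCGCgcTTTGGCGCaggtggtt
The search looked on both strands for TTTCCCGC, TTTGCCGC, TTTCGCGC and TTTGGCGC, different words that cannot match at the same position, though matches on opposite strands can share bases. The first match, TTTCGCGC, begins 26 bases before the start and the second, TTTGGCGC, 16 bases before it. Of 35116 promoter windows of this length in the table, 2.79% held at least 1 match. The search found no match in the windows of 8 of the other genes, but several of these do not lie at the start of the gene (that of RB1 lies inside it), so nothing is read from them. CDKN1C had no window. A match describes these letters and does not show that a factor binds there, nor does a missing match show that none binds.

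The listed genes that E2F factors switch on in S phase lay slightly below the control in SIRT7-KO, as RBL1 and CDKN2C did. Of the 10 genes described here, 5 lay above the control there beyond counting error. Most of the G1 cyclins and kinases read below lay below it (10 of 13, median log2 ratio -0.18). Single genes of the other cell cycle lists went both ways, with E2F7 at 0.39, CDK1 at 0.39 and CCNE2 at 0.35, but E2F2 at -0.41. The lists were chosen with earlier results of these data known. Of 19 E2F targets found from a list of 20, none passed the size rule in either knockout. In SIRT7-KO their median log2 ratio was -0.20 against -0.01 over all genes, and 18 of the 19 were below 0. The exception was RRM2, a subunit of ribonucleotide reductase, at 0.16. TYMS had -0.46 (-0.65 to -0.27), MCM3 -0.41 and POLA1 -0.38, and the abundant PCNA had -0.18. In USP39-KO 11 of the 19 were above 0 (median 0.07), with TK1 at 0.22, MCM7 at 0.19, FEN1 at 0.15 and PCNA at 0.02. TK1 and TYMS make thymidine nucleotides, POLA1 starts DNA strands, FEN1 processes them, and MCM3 and MCM7 belong to the replicative helicase.

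The E2F and DP factors that the pocket proteins bind were not uniform. None of 10 passed the rule, and medians were 0.09 in USP39-KO and -0.08 in SIRT7-KO. In SIRT7-KO the activator E2F2 had -0.41 (-0.54 to -0.27), whereas the repressor E2F7 had 0.39 and E2F5, a partner of RBL2, 0.38. In USP39-KO E2F5 had 0.30, E2F6 0.28 and E2F3 0.23. TFDP1, the abundant dimer partner, had 0.01 and -0.26. Of 8 genes for MuvB proteins, with which RBL1 and RBL2 form the DREAM repressor, and for MYB and FOXM1, none passed. MYBL2 had 0.28 in USP39-KO and 0.18 in SIRT7-KO, FOXM1 had 0.22 and MYBL1 -0.15 in USP39-KO, and LIN52 had 0.30, LIN54 -0.26 and RBBP4 -0.23 in SIRT7-KO.

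The kinases that the inhibitors act on were abundant. CDK6 had 47.9 FPKM in the control library, 62.8 in USP39-KO and 42.6 in SIRT7-KO, and CDK4 had 38.05, 37.9 and 33.9 FPKM, beside 39.7, 39.2 and 44.6 FPKM of CDKN2A, all per listed length. Per longest transcript the CDKN2A level was 3.43 times as high, but the kinase levels were not recomputed on that length, so the 2 are not comparable there. CDK6 had a log2 ratio of 0.41 (0.37 to 0.44) in USP39-KO and -0.19 (-0.23 to -0.14) in SIRT7-KO. Of 13 genes for G1 cyclins and kinases, 1 was lower by the rule in USP39-KO, where 3.37% of all genes were, and 2 in SIRT7-KO, where 4.05% were, and none was higher. These were CCND2, with 19, 6 and 6 reads in the order control, USP39-KO, SIRT7-KO, and CDK7, with 16, 6 and 4 reads and past the rule in SIRT7-KO. Both rest on few reads. Among the others, CCND3 had -0.48 (-0.56 to -0.39) and CCNE1 -0.38 in USP39-KO. In SIRT7-KO CCNE2 had 0.35, CCNE1 -0.22 and CDC25A -0.21. The median log2 ratio of the 13 genes was -0.01 in USP39-KO and -0.18 in SIRT7-KO, where 10 lay below 0.

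**Figure D4:**
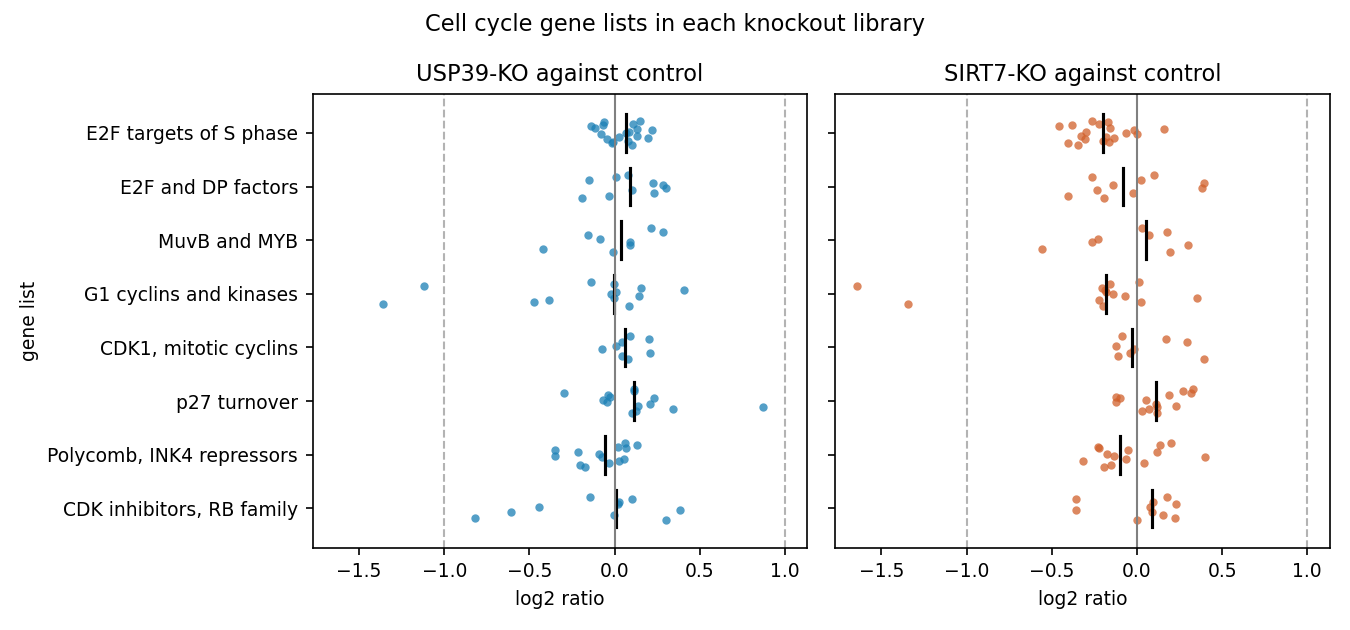
Log2 ratio against the control of each gene with at least 10 reads in 1 or more libraries, by gene list, 1 library against 1, with the list median as a black bar and dashed lines at 2-fold. In SIRT7-KO 18 of 19 E2F targets lie left of 0 (median -0.20), and in USP39-KO 11 of 19 lie right of it (median 0.07).

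MDM2, the ubiquitin ligase that ARF restrains, and its partner MDM4 were read beside CDKN2A. MDM2 had 1237, 1022 and 1406 reads in the order control, USP39-KO, SIRT7-KO. Its log2 ratio was -0.04 in USP39-KO and 0.44 (0.33 to 0.55) in SIRT7-KO, short of the 2-fold rule. MDM4 had 0.03 and 0.13, and CDKN2A itself had 0.00 and 0.15.

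Both knockouts were compared with the same control library, so their values against it are not independent. Set directly against each other, they differed in 8 of the 10 genes by more than counting error, 5 above and 3 below in SIRT7-KO, as in 59.1% of all genes, 29.2% above and 29.8% below. CDKN1C, CDKN2B (1.63-fold; log2 ratio 0.70, 0.53 to 0.87) and RBL2 (log2 ratio 0.32) lay above in SIRT7-KO, as did CDKN2A (0.16) and CDKN3 (0.21, with a lower bound of 0.0047). CDKN2C, RBL1 (log2 ratio -0.46, -0.60 to -0.32) and CDKN1B (-0.30) lay below. With a rule of 1.5-fold, CDKN1C and CDKN2B were higher and CDKN2C lower in SIRT7-KO, against 10.3% of genes higher and 7.91% lower.

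Genes with a pattern like that of CDKN2A were many. Likeness was the distance between pairs of log2 ratios against the control, over 3 libraries and 10044 protein-coding genes with at least 100 reads in 1 or more libraries. The nearest were C7orf50, PREPL and FARSB, at distances of 0.0033, 0.0086 and 0.0089, and 686 genes lay within 0.1. A pattern this flat marks out no small group.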

How the data were processed

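Per the labels' protocols, Trizol was used to extract RNA and a TruSeq kit to prepare libraries. The authors deposited 1 table of read counts and FPKM for 3 libraries, with a gene length. The counts are whole numbers per gene. The column headers call them read counts, and the name under which they were deposited calls them raw counts. The deposited FPKM equal counts scaled by listed length and library total, which was checked on every gene with reads to a relative tolerance of 1e-06. The sources used here do not give the aligner, counting program, annotation or genome build. The listed length equals the union of GENCODE 29 exons for 5 of the 10 genes and lies within 4.59% of it for the others.

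Of 22827 Ensembl identifiers, 19649 had a symbol in the tables used. Coordinates and overlaps are those of GENCODE 29 on GRCh38. CPM and log2 ratios used TMM library sizes (edgeR 4.0.16). A prior of 0.5 was added to each count in proportion to library size, and the 95% interval of the ratio is exact (conditional binomial, Clopper-Pearson, scipy 1.17.1). Intervals and the floor for a count of 0 (3 counts) cover counting error only, because reads carry no molecular identifiers. The filter was a count of 10 in 1 library. A single library per group gives no dispersion, so neither edgeR nor DESeq2 was used for a test, and DESeq2 1.42.0 gave size factors only. The calculation was tested on simulated counts.

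The 10 genes and the gene lists were chosen with earlier results of these data known. Each list is described by its genes past the size rule, by up to 3 others farthest from a log2 ratio of 0 (counts of 100 or more) and by its most abundant gene. Some of the nearest and overlapping genes of the 10 are named. Of the others, APOLD1, AP1M2 and CNIH1 had reads and did not differ 2-fold, and CDKN2A-DT had at most 3 reads. RRM2, RING1, KDM2B, CBX2, DMRTA1, IFNE, COL1A2, PTPRC, CDK4 and MDM4 were named after their values were seen. Alternatives were other library scalings, count filters, a prior of 2 counts, deposited FPKM with a pseudocount of 0.1, a 1.5-fold rule and transcript length. Some items are left out and not reported here.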

Additional observations from a re-analysis of the deposited data

How the results depend on the processing

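All 180 log2 ratios of the 10 genes under other scalings (library totals, DESeq2 size factors, upper-quartile factors, totals without mitochondrial-genome genes), a prior of 2 counts or deposited FPKM stayed inside their 95% interval, with a largest move of 0.03, and 4 changed sign, where the reported value was at most 0.0031 in size. CDKN1C between the knockouts was the 1 gene past the 2-fold rule under each of these scalings, the prior of 2 counts and the count filters. The rule was not run on deposited FPKM. Under library totals the interval excluded 0 in all 10 genes between the knockouts, in place of 8. That scaling also moved the median log2 ratio of all genes between the knockouts from -0.004 to 0.026. The share of all genes with an interval excluding 0 was not counted under it, so nothing is read from the 10 of 10. The count of 10 was added after the data were seen. With the 1.5-fold rule, 2 of the 10 genes passed in USP39-KO and 3 between the knockouts, and over all genes 1220, 1914 and 2322 passed in USP39-KO, in SIRT7-KO and between the knockouts, in place of 618, 899 and 1087. When a gene needed 100 counts in 1 library, 174, 346 and 502 genes passed, with 10181 genes read in place of 12726. Per longest transcript 4 of the 10 genes took another rank in the control. No paired analysis was possible because each group has 1 library. Depth limits CDKN2D most, with 49 to 79 reads.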

Other observations

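Markers of other cell types were read beside the 10 genes. The 15 hepatocyte and Hep3B markers summed to 9.83 CPM in the control library, 2.98 in USP39-KO and 2.51 in SIRT7-KO, and the 5 epithelial markers to 2069.5, 1586.9 and 1718.3 CPM, almost all of it from the keratins KRT8 and KRT18. HNF4A, a liver transcription factor, had 113, 29 and 7 reads and was lower by the 2-fold rule in both knockouts, as was the fibrinogen gene FGB with 55, 1 and 2 reads. FGG, another fibrinogen gene, had 2, 0 and 16 reads and was higher by the rule in SIRT7-KO. The epithelial genes EPCAM, with 37, 21 and 7 reads, and CDH1, with 24, 28 and 8, were lower by the rule in SIRT7-KO. The 7 fibroblast markers summed to 117.9, 139.2 and 114.3 CPM, mainly from COL1A1, while COL1A2 was listed at 0 reads in all 3. The 5 endothelial markers summed to at most 1.13 CPM and the 5 leukocyte markers to at most 4.78 CPM, with PTPRC, the defining leukocyte marker, at 0 reads in all 3. The part of any of these in the values of the 10 genes was not tested.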
